A study of Sus scrofa domesticus with 2 samples.

Results

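Cytosolic ribosomal protein genes encode the protein subunits of the ribosome that translates nuclear messages in the cytoplasm. A feature was counted as a member when its symbol began with RPL or RPS and a digit, or was RPLP0, RPLP1, RPLP2 or RPSA. The 10 kinases with an RPS6K symbol and the 7 paralogues with a symbol ending in L, or in L and a digit, were left out. Of the 22804 features in each count matrix, 43 met this rule and 42 entered the sums: 19 of the large subunit outside the P stalk, 2 of the stalk (RPLP0 and RPLP2) and 21 of the small subunit, RPSA included. The symbol set aside, RPS19BP1, encodes a binding partner of a ribosomal protein and no subunit. It held 81.0 UMIs in 1000000 (CPM) in lung and 62.5 CPM in aorta endothelial-like cells, far below nearly every member. The set is a partial one. No symbol stood beside 7821 Ensembl identifiers, and 12 of these received a ribosomal protein symbol from a gene name table, RPL4, RPLP1 and RPS2 among them. These 12 stayed outside the main sums and are given beside them. RefSeq lists 76 protein-coding symbols under the same rule, of which 53 were found among the members or the added genes and 23 were not, RPS6, RPL32 and RPS19 among them. No feature in either matrix carried the symbol RPL41. Every summed share below therefore covers only a portion of the family.

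A small subunit reads the message and a large subunit joins the amino acids. The P stalk, a flexible arm of the large subunit made of RPLP0, RPLP1 and RPLP2, contacts the translation factors that use GTP. Messages of this family are among the most abundant of dividing cells, and most begin with a run of pyrimidines, the 5′ terminal oligopyrimidine (TOP) motif, through which mTOR signalling sets their translation.

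The study described single-cell transcriptomes of domestic pig tissues and cells, and the values here come from cultured primary endothelial cells of the aorta and of the lung, with 1 library each. Cells were freed with collagenase from the perfused lung or the nearby aorta and grown in medium with 10% fetal calf serum. No sort is described, and the labels give no age, strain or treatment for these cultures. The methods give crosses of Landrace, Large White and Duroc aged 6 months as the pigs behind the single-cell tissue libraries, without naming the cultures. The study used RPL3 and RPL7A as markers of intermediate endothelial cells. Without a second library per organ nothing could be tested between groups. Intervals in parentheses are exact or log-scale 95% intervals that cover counting error, and organ, animal, culture, depth and library cannot be told apart.

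The aorta library held 1185 barcodes with a median of 45594 UMIs, and the lung library 5946 barcodes with a median of 9326. Limits were taken from the methods of the study: more than 200 but fewer than 5000 genes, and less than 30% of UMIs on 12 mitochondrial genes. Applied here to the deposited counts, they passed 246 aorta and 5683 lung cells. The files do not list the cells that the study itself kept. Its aorta set is larger than the cells that pass here, so the set used here is not the study's own. The upper limit on genes set aside 709 aorta cells but 26 lung cells. These deep aorta cells, with a median of 58476 UMIs, held 43390389 of the library's 46080859 UMIs and are described on their own. Cells over that limit are named as doublets in the study, but the size of its aorta set can be reached only with some of these deep cells, so not all of them were left out there. Whether they are doublets was not tested. The libraries shared 5 barcodes, and 0 passed in both.

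Cells were clustered within each library and named from marker genes; no member was among the 2000 variable genes, so the members took no direct part in forming the classes. The label endothelial was met by most cells. Non-cycling lung endothelial-like cells (2233 cells) held 12 of 17 endothelial markers at 20 CPM or more, summed to 3444 CPM, with PECAM1, a junction protein, highest at 1673 CPM. The 274 non-cycling deep aorta endothelial-like cells held 13 of 17, summed to 3322 CPM. Among the 158 aorta endothelial-like cells that passed all limits, the 104 with at least 1% mitochondrial UMIs held 13 of 17 markers at a sum of 3156 CPM, VWF being at 0. The other 54 held 10 of 17 at a sum of 948.2 CPM, with KDR, FLT1, TEK, VWF and PLVAP at 0, so their label rests on fewer markers. In 66 aorta cells, called EndMT-like here (after endothelial-to-mesenchymal transition), 1 of 17 endothelial markers reached 20 CPM, at a sum of 77.8 CPM. Their EndMT markers ACTA2, TAGLN, S100A4 and CNN1 summed to 5646 CPM and 5 of 7 smooth muscle markers reached 20 CPM. The data thus go against the label endothelial for these cells. They go against it also for collagen-high cells, 334 in lung, 22 in aorta and 126 among the deep aorta cells. There COL1A1 and COL1A2, the chains of type I collagen, summed to 11161, 11536 and 10268 CPM, and the endothelial list to 447.6, 209.8 and 161.0 CPM. A lung class of 89 cells, called immune-like, held 7 of 11 immune markers at a sum of 630.4 CPM beside 2147 CPM of the endothelial list. The endothelial sum was thus the larger, so the label immune-like holds only in part. Immune, epithelial, lymphatic and erythroid markers were at or near 0 in the other classes.

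Levels of the members spanned a wide range, read as UMIs from the 3′ end, which do not scale with transcript length. In non-cycling lung endothelial-like cells the median member held 2865 CPM, and in aorta endothelial-like cells 2494 CPM. Of the 42 members, 41 in lung and 40 in aorta reached 1000 CPM. The 5 most abundant made up 26.4% of ribosomal protein UMIs in lung and 26.8% in aorta, and the 10 most abundant 43.5% and 43.3%. A small number of members thus carried a large portion of the sum in both of these classes.

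Within the large subunit, RPL10, which helps complete the peptidyl transferase centre, led with 7297 CPM in lung and 5580 CPM in aorta. RPL7A followed with 6078 and 5094 CPM, and RPL8 with 5935 and 4362 CPM. RPL13 held 4421 and 3983 CPM, and RPL6 4059 and 3563 CPM. All of these were higher in the lung library. RPL11 and RPL5, which with 5S RNA form a particle that can bind MDM2, held 3602 and 2212 CPM in lung and 3152 and 2131 CPM in aorta. RPL3, beside RPL7A the other gene the study used as a marker, held 3066 and 2302 CPM. At the low end, RPL27 held 1484 CPM in lung and 1418 CPM in aorta, and RPL22 1272 CPM in aorta. RPL10A stood apart from the rest with 54.3 CPM in lung and 35.8 CPM in aorta, and was the only member under 100 CPM in either library. It stayed under 50 CPM in the aorta classes, which leaves 41 members in the comparisons within the aorta.

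The first place went to a small subunit member. RPS20, a protein of the head of the small subunit, was the most abundant member in both libraries, at 9130 CPM in lung, 6.94% of ribosomal protein UMIs, and 9505 CPM in aorta. RPS12 held 6336 and 7231 CPM, RPS18 4743 and 4216 CPM, and RPS27A, made as a fusion with ubiquitin, 4592 and 3953 CPM. RPSA, which also goes by the name laminin receptor, held 3818 and 3620 CPM. RPS4X, from an X-linked gene, held 2652 and 2369 CPM. Among the lowest were RPS26 (1354 CPM), RPS29 (1239 CPM) and RPS28 (1164 CPM) in lung, and RPS28 (1289 CPM) in aorta. RPS2, also among the added genes, held 7872 CPM in lung and 6759 CPM in aorta, between the top members.

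In the P stalk RPLP0, which anchors the stalk to the ribosome, held 4660 CPM in lung and 5305 CPM in aorta, and RPLP2 1576 and 1503 CPM. RPLP1, which pairs with RPLP2, was given only by an identifier and stood at 5912 and 6376 CPM, well above its partner. Across the 42 members, log2 CPM in lung and in aorta correlated with r = 0.98 and a Spearman rho of 0.97 (genes are not independent replicates). The order of members was thus nearly the same in both libraries. UMIs of the small subunit over those of the large subunit and stalk gave ratios of 0.983 in non-cycling lung cells, 0.993 in non-cycling deep aorta cells and 1.06 in aorta endothelial-like cells.

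The members together took 13.2% (13.1 to 13.2) of UMIs in non-cycling lung endothelial-like cells, 12.2% (12.1 to 12.3) in aorta endothelial-like cells and 11.3% in the non-cycling deep aorta cells. With the 12 added genes the share was 16.8% in lung and 15.8% in aorta. Lung collagen-high cells stood at 13.9%, aorta collagen-high cells at 13.0% and deep collagen-high cells at 12.1%. The lung immune-like class held 11.8%. The highest share of any class was 17.6% (17.5 to 17.8) in the aorta EndMT-like cells. Over the lung classes the share ran from 11.8% in the immune-like class to 14.6% in a group that no marker list named. The 10th to 90th percentile ranges over cells overlapped between all classes of the lung and of the aorta cells under 5000 genes. The standard deviation over cells was 1.43 percentage points in non-cycling lung cells, 3.54 in aorta endothelial-like cells and 3.30 in EndMT-like cells. A lung group of 332 cells that no marker list named held 14.6%, at a median of 2861.5 UMIs against 9011 in non-cycling cells.

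**Figure D1:**
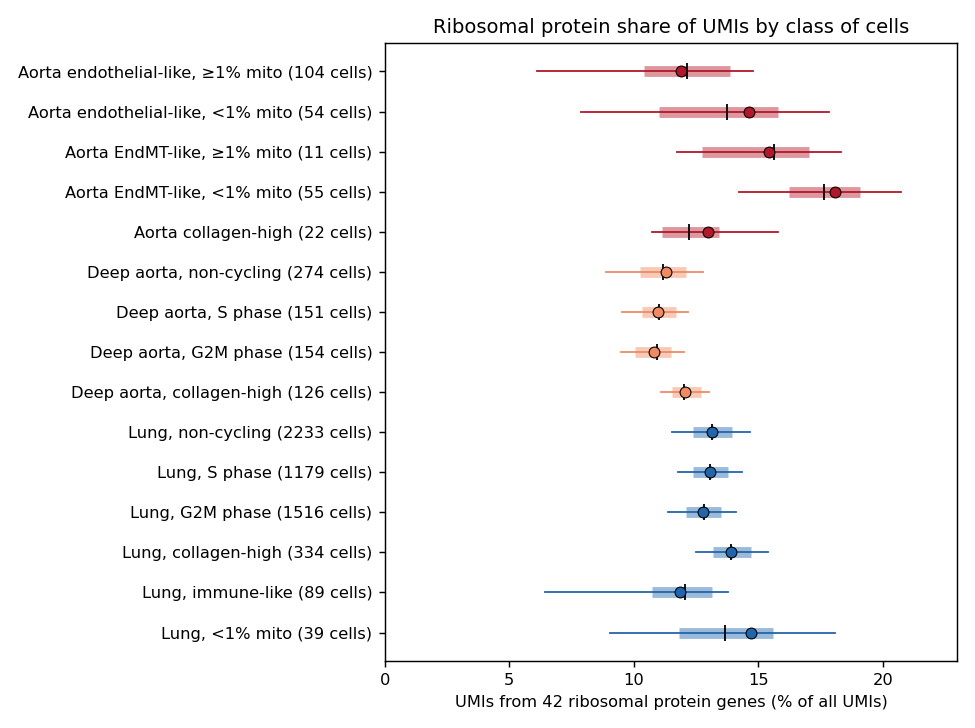
Share of all UMIs from the 42 members (x axis, percent) in the lung (blue), aorta cells under 5000 genes (red) and deep aorta cells (orange), with cell numbers. Aorta endothelial-like and EndMT-like cells are split at 1% mitochondrial UMIs. Lung cells under 1% are shown whatever their class, and unnamed groups are not drawn. Circles are pooled shares and black ticks medians over cells. Thick bars are the 25th to 75th and thin lines the 10th to 90th percentiles over cells. The aorta EndMT-like cells under 1% sit highest at 18.1%.

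In dividing cells the members held nearly the share of non-cycling cells. S phase lung cells (1179 cells) had 13.1% and G2M phase lung cells (1516 cells) 12.8%, against 13.2% in 2233 non-cycling cells. The ratios were 0.993 (0.991 to 0.995) and 0.972 (0.970 to 0.974), and the S phase ratio passed to the other side of 1 (1.00) with 10 principal components and with the 5 most abundant members left out. A feature with at least 50 CPM in either class was called up when its CPM was at least 25% higher than in the other class, and down when at least 20% lower, the inverse. Of the 42 members, 0 were up or down in S phase, where 16.7% of 3133 features were up and 9.22% down. Likewise 0 members were up or down in G2M phase, against 16.9% and 8.46% of 3143 features. The members stood out from the features at large by how little they differed, also from those at 500 CPM or more in either class (members included), of which 8.1% were up and 9.51% down in S phase and 7.22% and 8.3% in G2M phase. RPS28 had the lowest ratio in both phases, 0.923 and 0.894. RPS20 came next with 0.938 and 0.918.

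The deep aorta cells gave much the same picture. The share was 11.0% in 151 S phase cells and 10.8% in 154 G2M phase cells, against 11.3% in 274 non-cycling cells, with ratios of 0.972 (0.970 to 0.974) and 0.959 (0.957 to 0.961). Of the 41 members, 0 were up or down in S phase, against 27.9% of 3420 features up and 17.4% down (15.8% and 18.3% at 500 CPM or more). In G2M phase 0 were up or down, against 30.6% and 16.8% of 3411 (19.3% and 16.9% at 500 CPM or more). With features from 10 CPM on, RPL10A was counted as 1 member up. RPS20 was again at the low end, at 7791 CPM in S phase and 7414 CPM in G2M phase against 9037 CPM, or 0.862 and 0.820. RPS13 was at 1.10 in S phase, and RPL5 and RPS13 were at 1.11 each in G2M phase. RPS20 and RPS28 were thus below 1 in both phases of either set of cells.

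Most genes that build ribosomes, unlike the members, were higher in cycling cells. Of 14 ribosome biogenesis genes at 50 CPM or more, 13 were up in lung S phase cells, at a median of 1.47-fold, led by NOLC1 (2.19-fold), NOP56 (2.08-fold), DKC1 (2.06-fold) and EBNA1BP2 (1.91-fold). In the deep aorta S phase cells 13 of 14 were up at a median of 1.93-fold, with NOLC1 at 2.75-fold and DKC1 at 2.71-fold. In G2M phase 9 of 13 were up in lung (median 1.44-fold) and 13 of 14 in deep cells (median 1.90-fold), and 0 were down in either. The median over members was 1.00-fold in lung S phase and 0.982-fold in deep S phase cells. Of 16 other genes known to carry a TOP motif, such as elongation factors, 0 were up or down in lung S phase, at a median of 1.006-fold. Of 13 translation initiation genes, 2 were up and 0 down there, at a median of 1.16-fold. This list holds initiation factors and EIF4EBP1, a binding protein of the factor EIF4E. By these medians the members and the other TOP genes differed less in lung S phase cells than the ribosome biogenesis genes.

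In collagen-high cells the summed share was slightly higher than in endothelial-like cells. It stood at 13.9% in 334 lung collagen-high cells against 13.2% in non-cycling endothelial-like cells, a ratio of 1.06 (1.05 to 1.06). In the deep aorta cells it was 12.1% against 11.3%, a ratio of 1.07 (1.07 to 1.07). Among aorta cells under 5000 genes it was 13.0% in 22 cells against 12.2% in 158, a ratio of 1.07 (1.05 to 1.08) that fell to 0.835 with 30 principal components, 0.843 in cells of 2000 to 10000 UMIs and 0.988 with a mitochondrial limit of 10%. With 30 components the collagen-high cells shared a cluster of 103 cells with endothelial cells. The small aorta comparison therefore has no settled direction, while the lung and deep comparisons stayed above 1 in every alternative tried.

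The sum hid members that differed in opposite directions. RPSA had the highest ratio in all 3 comparisons among the members at 50 CPM or more: 5325 against 3818 CPM in lung, or 1.39-fold (1.37 to 1.42), 6329 against 3620 CPM in aorta, or 1.75-fold (1.64 to 1.86), and 4690 against 3238 CPM in deep cells, or 1.45-fold (1.43 to 1.47). RPS20 was lower in each: 7596 against 9130 CPM in lung (0.832-fold), 7642 against 9505 CPM in aorta (0.804-fold) and 6579 against 9037 CPM in deep cells (0.728-fold). RPL27 was lower too, with 0.828-fold, 0.726-fold and 0.823-fold, as was RPS28, with 0.876-fold, 0.685-fold and 0.865-fold. Among these members RPSA was thus first, and RPS20, RPL27 and RPS28 were among the 5 lowest, in each comparison. RPL10A, under 50 CPM, was at 1.49-fold (1.31 to 1.69) in deep cells.

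Few members were up or down. In lung 2 of 42 (RPSA and RPS23) were up and 0 down, against 28.6% of 3330 features up and 27.8% down. In aorta 2 of 41 were up, RPSA among them, and 2 down (RPS28 and RPL27), against 36.7% and 31.8% of 3674 features. In deep cells 5 of 41 were up, among them RPSA, RPS13, RPL5 and RPS27A, and 1 down (RPS20), against 38.6% and 29.9% of 3620. Members were up or down less often than features at large, also beside features at 500 CPM or more, of which 22.2% were up and 24.2% down in lung, 26.8% and 26.1% in aorta and 34.2% and 26.9% in deep cells. At 1.5-fold the counts were 0 in lung, 1 up (RPSA) and 0 down in aorta, and 0 either way in deep cells. Without cells under 1% mitochondrial UMIs, 4 were up in aorta. For these settings the share of all features was not counted. RPL4, among the added genes, had a larger fold than RPSA in lung and deep cells, 1.61 and 1.64, from 944.9 to 1525 CPM and from 1048 to 1719 CPM. RPL3 was at 1.10-fold in lung and 1.20-fold in deep cells, and RPL7A at 1.03-fold and 1.04-fold. Biogenesis genes were up in 11 of 14 in lung (median 1.55-fold), in 9 of 14 in aorta (median 1.38-fold), where NOP58 (0.366-fold) and NOP10 (0.618-fold) were down, and in 14 of 16 in deep cells (median 2.68-fold, EBNA1BP2 5.36-fold), where G2M phase markers summed to 1834 CPM against 166.9 CPM in the non-cycling cells. The part of cycling in these ratios was not tested. RPS27L, a paralogue of RPS27 that p53 can induce and that the rule leaves out, was lower: 374.5 against 507.2 CPM in lung, 209.8 against 406.3 CPM in aorta and 268.7 against 514.9 CPM in deep cells, or 0.738-fold, 0.516-fold and 0.522-fold.

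**Figure D2:**
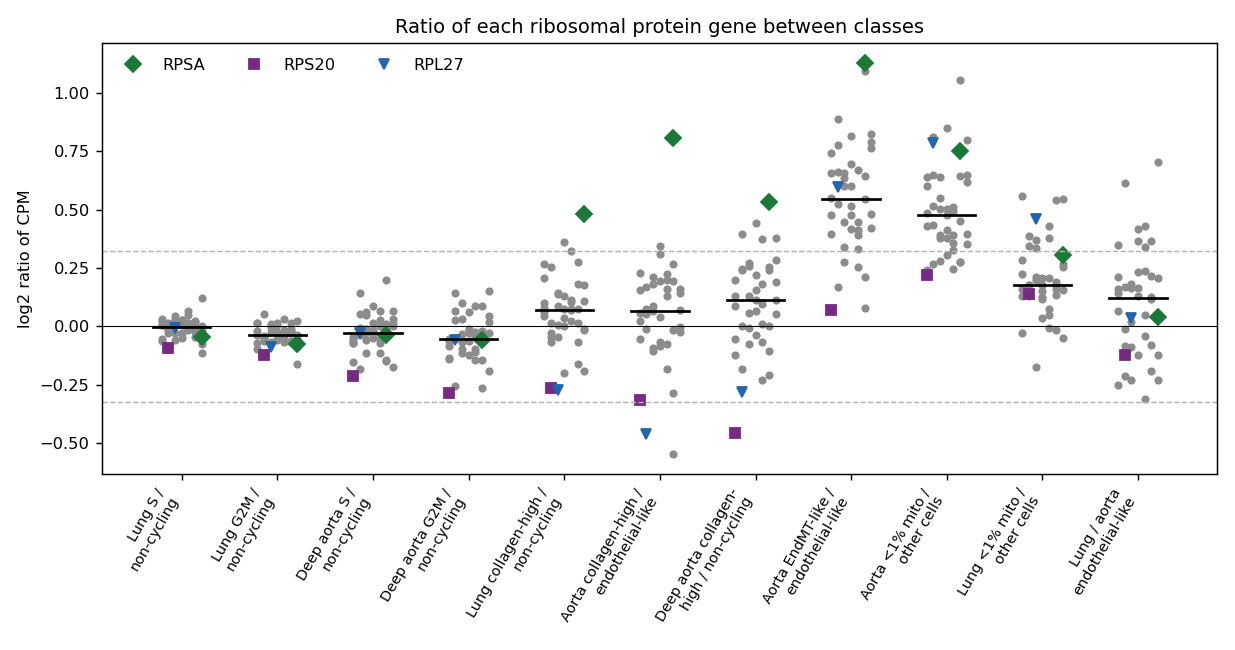
Ratio of CPM (y axis, log2) for each member at 50 CPM or more in either class, 1 point per member, in 11 comparisons, with the median as a black line and the limits for up and down as dashed lines. RPSA (green diamond) lies highest of these in the collagen-high comparisons, at 1.39-fold to 1.75-fold, and RPS20 (purple square) and RPL27 (blue inverted triangle) are marked too; the aorta collagen-high ratio of the summed share fell below 1 with 30 principal components.

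EndMT-like aorta cells had the largest share. It was 17.6% in 66 cells against 12.2% in 158 endothelial-like cells, a ratio of 1.45 (1.43 to 1.46) that ranged from 1.21 to 1.59 over the alternatives. Of 41 members 35 were up and 0 down, against 40.7% of 3520 features up and 44.9% down. Abundance must be set beside this count: of 340 features at 500 CPM or more, 65.3% were up and 21.8% down, with a median of 1.43-fold, against 1.46-fold over the members and 0.941-fold over all features tested. The members were up more often than abundant features, but the median member differed about as far as the median abundant feature. At 1.5-fold the count was 19, and without cells under 1% mitochondrial UMIs, which left 11 EndMT-like cells, it was 23. The share of all features was not counted at either setting, so these counts do not set members against other features.

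RPSA again led, with 7909 against 3620 CPM, or 2.18-fold (2.08 to 2.29). RPS13 was at 1.85-fold, RPL22 at 1.77-fold and RPL17-C18orf32, a symbol for a readthrough transcript of RPL17, at 1.76-fold. These 4 members differed by more than the sum of all members. RPS20, the most abundant, was almost level, with 9970 against 9505 CPM, or 1.05-fold (1.01 to 1.09), as was RPS28 at 1.06-fold (0.949 to 1.18). RPL3 was at 1.52-fold, RPL7A at 1.36-fold, RPLP0 at 1.33-fold and RPLP2 at 1.56-fold. None of the 41 members lay below 1 in this comparison.

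Most EndMT-like cells had hardly any mitochondrial UMIs, with a median of 0.0987% against 5.40% in endothelial-like cells, and 55 of 66 were under 1%. Their median depth was 3829 UMIs against 5588. Cells under 1% were therefore also compared with the rest whatever their class. In aorta 110 such cells held 16.8% (16.7 to 16.9) against 12.2% (12.1 to 12.2) in 136 others, a ratio of 1.38 (1.37 to 1.39), or 1.26 when mitochondrial UMIs were left out of the total. In lung 39 such cells held 14.7% (14.5 to 15.0) against 13.1% in 5644 others, a ratio of 1.13 (1.11 to 1.15), at a median of 1093 UMIs against 9467.5. The lung contrast is almost wholly that of a single class against the rest: 37 of the 39 cells were in the group that no marker list named. Within that group the pooled share was 15.2% (14.9 to 15.5) against 14.6% (14.5 to 14.6) in its 295 other cells, but the median over cells went the other way, 13.8% against 14.7%. Over all lung cells class and a low mitochondrial share thus cannot be told apart, and within this group the direction depends on the measure.

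In aorta the same order was seen within 2 of 3 classes; the only collagen-high cell under 1% held 9.06% (6.95 to 11.6) against 13.0% in the 21 others. Aorta endothelial-like cells under 1% held 14.6% (14.5 to 14.8) against 11.9% (11.8 to 11.9), a ratio of 1.23 (1.215 to 1.248) in 54 against 104 cells. Without the upper limit of 5000 genes this ratio was 0.824, from 5 cells against 631. EndMT-like cells under 1% held 18.1% (17.9 to 18.2) against 15.4% (15.1 to 15.7) in the 11 others. By pooled shares EndMT-like cells with at least 1% thus stood above endothelial-like cells on either side of the limit, at 15.4% against 11.9% and 14.6%. Their 10th to 90th percentiles over cells, 11.7% to 18.3%, overlapped those of endothelial-like cells under 1%, 7.88% to 17.8%. The 11 cells also had a lower median mitochondrial share than endothelial-like cells with at least 1%, 2.35% against 7.13%. Its part in this order was not tested. The EndMT list summed to 719.6 CPM in the endothelial-like cells under 1% and to 253.7 CPM in the others, and its part in the ratio was not tested. In lung it summed to 2566 CPM under 1% and 1208 CPM in the others, and the endothelial list to 1658 and 3060 CPM.

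Over bins of the mitochondrial share the aorta share was 16.9% in 84 cells under 0.2%, 15.9% in 19 cells at 0.2 to 0.5%, 17.0% in 7 cells at 0.5 to 1%, 16.0004% in 10 cells at 1 to 2%, 14.8% in 4 cells at 2 to 3%, 12.3% in 17 cells at 3 to 5%, 13.0% in 54 cells at 5 to 8%, 11.96% in 37 cells at 8 to 12% and 8.63% in only 14 cells at 12 to 30%. The lung share was 15.97% in 21 cells under 0.2%, 14.4% in 12 cells at 0.2 to 0.5%, 12.6% in 6 cells at 0.5 to 1%, 13.2% in 2442 cells at 3 to 5% and 10.0% in 78 cells at 12 to 30%. Between 1 and 8% the lung share stayed between 13.1% and 13.2%. In aorta depth gave no such order: the share was 8.77% under 1000 UMIs, 15.4% from 2000 to 5000 and 10.4% from 20000 on. In lung it was lowest under 1000 UMIs (11.5%) and highest from 20000 on (14.1%). Between these bins it did not rise steadily, with 13.5% from 2000 to 5000 and 13.0% from 10000 to 20000. Over the mitochondrial bins the share was thus highest in lung, and near its highest in aorta, in the lowest bin. It was lowest in the highest bin of both, without a steady fall between them. In aorta the pooled share at 1 to 2% was as high as at 0.2 to 0.5%, but the medians over cells were 12.8% and 14.3%, with 16.9% at 0.5 to 1%, so whether the share steps at 1% depends on the measure. Mitochondrial UMIs are part of the total in these shares, so part of the order may be built in. Of UMIs outside mitochondrial genes the highest bin held 10.6% in aorta and 12.1% in lung, still the lowest of each library. On that total the lung share rose from 13.4% at 1 to 2% to 14.0% at 5 to 8%.

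**Figure D3:**
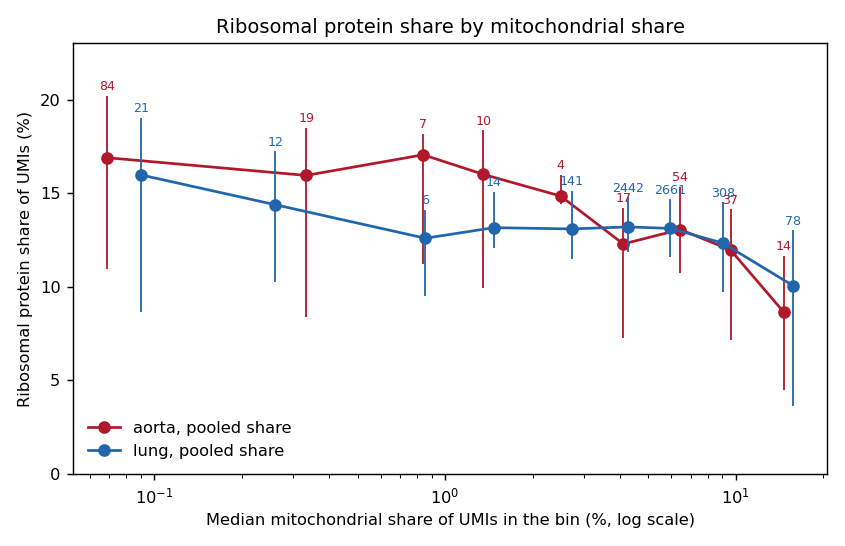
Share of all UMIs, mitochondrial ones included, from the 42 members (y axis, percent) in aorta (red) and lung (blue). The x axis gives the median mitochondrial share of UMIs in each bin (percent, log scale). Points are pooled shares, vertical lines the 10th to 90th percentiles over cells and digits the cells per bin; the aorta runs from 16.9% in the lowest bin to 8.63% in the highest.

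By member, 33 of 41 were up and 0 down in aorta cells under 1%, against 40.7% and 44% of 3519 features. Of 334 features at 500 CPM or more 69.2% were up and 18.6% down, and their median was 1.44-fold against 1.39-fold over the members. Within endothelial-like cells 19 of 41 were up and 0 down, against 42.9% and 39.2% of 3563 features; among 329 at 500 CPM or more 59.6% were up and 18.5% down, at a median of 1.36-fold against 1.24-fold. In lung 10 of 42 were up and 0 down, against 38.5% and 31.4% of 3464 features, and 39.1% and 14.1% of 312 at 500 CPM or more, with medians of 1.13-fold over members and 1.17-fold over those abundant features. The share of members up was above that of abundant features in all aorta cells and below it in the other comparisons, and the median member stayed below the median abundant feature in all 3, so a higher level was not particular to the members. At 1.5-fold the members up numbered 13, 5 and 0, and with CPM of UMIs outside mitochondrial genes 21, 10 and 5. Neither setting has a count over all features to set beside these.

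In the aorta comparisons of all cells and of endothelial-like cells, RPL27 was at 1.72-fold and 1.79-fold, RPL17-C18orf32 at 1.80-fold and 1.73-fold, and RPS13 at 1.76-fold and 1.57-fold. RPSA was at 1.68-fold in all cells but 1.24-fold within endothelial-like cells. The lowest were RPS20 at 1.16-fold in all cells, and RPL37 (0.979-fold) and RPS12 (0.981-fold) within endothelial-like cells. In lung the order was another: RPS29 led with 1814 against 1232 CPM, or 1.47-fold (1.24 to 1.75), before RPS28 (1.46-fold), RPL37 (1.45-fold) and RPL27 (1.37-fold), and RPL7 was lowest at 0.886-fold (0.779 to 1.01). RPL27 was the member found among the 5 highest in all 3 of these comparisons.

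Mitochondrial ribosomal proteins, which form the separate ribosome of that organelle from nuclear genes, were up in 52 of 54 in aorta cells under 1%, at a median of 1.99-fold. In lung they were up in 30 of 52, at 1.30-fold. Biogenesis genes were up in 14 of 16 in aorta (median 1.82-fold) and in 3 of 14 in lung, where 4 were down. Both lung counts lie below the shares of all features up and down in lung, given above with the members. All 4 paralogues at 50 CPM or more were up in aorta, at a median of 2.14-fold. In EndMT-like cells 14 of 15 biogenesis genes were up and 1 down (NOP58, 0.773-fold), at a median of 2.003-fold, with EBNA1BP2 at 7.28-fold, NIP7 at 3.97-fold and NPM1 at 2.92-fold, and 9 of 16 other TOP genes were up and 2 down (EEF2, 0.655-fold, and PABPC1, 0.570-fold), at a median of 1.41-fold. Of 13 translation initiation genes 9 were up and 2 down there, at 1.76-fold. Those up included EIF4EBP1 (3.81-fold), which encodes a binding protein of the factor EIF4E and no factor itself. Those down were EIF4G1 (0.0650-fold) and EIF4G2 (0.666-fold). Lower levels were not particular to this class. In aorta endothelial-like cells under 1% against the others EIF4G1 was at 0.196-fold, EIF4G2 at 0.598-fold, EEF2 at 0.574-fold and PABPC1 at 0.610-fold. Lung cells under 1% gave 0.377-fold, 0.922-fold, 0.774-fold and 1.04-fold in that order. Unlike most members, RPL4 was lower in aorta cells under 1%, with 921.3 against 1216 CPM (0.758-fold). Within endothelial-like cells it held 659.0 against 1131 CPM (0.583-fold). Each of these related lists but the other TOP genes had a higher median in aorta cells under 1% than the members had.

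Between organs, lung endothelial-like cells (4928) held 13.0% and aorta endothelial-like cells (158) 12.2%, a ratio of 1.07 (1.06 to 1.07). The lung cells included 1179 in S phase and 1516 in G2M phase, whereas all 158 aorta cells were in the non-cycling class. The ratio changed side with 30 principal components (0.907) and in cells of 2000 to 10000 UMIs (0.942), so no direction can be given. Of 42 members 8 were up (higher in lung) and 0 down, against 29% and 25.4% of 3334 features; the median was 1.09-fold over members and 1.11-fold over the 281 features at 500 CPM or more, of which 35.2% were up and 17.4% down. With CPM of UMIs outside mitochondrial genes 1 member was down, and at 1.5-fold 2 were up, with no share of all features counted at either setting. Among members higher in lung were RPL10A at 1.53-fold (1.15 to 2.04), RPL8 at 1.35-fold and RPL3 at 1.33-fold. RPL7A was at 1.17-fold. Higher in aorta were RPS26 (0.806-fold), RPS29 (0.840-fold), RPS3A (0.852-fold) and RPLP0 (0.877-fold). The share of members up or down was thus below that of all features in both directions.

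In most single cells nearly all members were seen, but RNA taken up from outside the cell was not estimated. In cells of at least 2000 UMIs, thinned to that number, the median was 40 or 41 of 42 members in each lung class and in each class of the aorta cells under 5000 genes, and over all cells of these classes without thinning it was 41. This left out 24 of the 54 aorta endothelial-like cells under 1% mitochondrial UMIs and 93 of the 332 unnamed lung cells, among others, and the deep aorta cells were not counted this way. Over the 12 lung clusters the median member varied by 9.61% (coefficient of variation of CPM), against 18.3% over 249 features at 500 CPM or more; over the 4 aorta clusters by 19.3% against 31.4% of 245. RPS16 varied least in lung, by 2.85%, and RPL10A (22.2%), RPS28 (21.7%) and RPSA (18.3%) most. Members thus varied less between these clusters than abundant features at large. No member was among the variable genes that formed the clusters, so part of this difference may be built in. There were exceptions: in lung RPL10A and RPS28 were above the median of abundant features and RPSA was at it. In aorta RPSA (36.8%), RPL27 (34.2%), RPL17-C18orf32 (31.8%) and RPS13 (31.5%) were above it. Of 246 aorta cells 12 had at least 20% of UMIs from members, all 12 with under 1% mitochondrial UMIs. Another 11 had under 5%, of which 3 had under 1% mitochondrial UMIs and 6 had 10% or more. In lung 4 of 5683 cells had at least 20%, 1 of them with under 1% mitochondrial UMIs. There 21 cells had under 5%, and 18 of these had 10% or more mitochondrial UMIs.

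The TOP motif was sought at RefSeq transcript starts as a C followed by at least 4 pyrimidines, on the strand of the gene. At least 1 transcript began with it in 10 of the 40 members with a single RefSeq place (25%), in 5 of 18 other TOP genes (27.8%) and in 1264 of all 19573 protein-coding genes (6.46%). Within 5 bases of the start it was present in 42.5% of members and 29.9% of all genes. A match is a description, and a start set a few bases off would hide the motif. RPS20, the most abundant member, RPL10, RPL6, RPLP0 and RPLP2 carried it. The abundant RPS12, RPL7A, RPL8 and RPS18 did not, and RPSA, the member with the highest ratio in EndMT-like cells, did not either. The bases that RefSeq gives at the start of transcripts in Sscrofa11.1 are shown for these 5 carriers, chosen to show the motif in both subunits and the stalk, and for RPSA as a member without it; capitals mark the pyrimidine run of the motif. They are the first 20 transcribed bases, in the first exon, at chr4:75762209-75762228 (plus strand) for RPS20, chrX:124927249-124927268 (plus) for RPL10, chr14:39302447-39302466 (plus) for RPL6, chr14:40223924-40223943 (minus) for RPLP0, chr2:507891-507910 (plus) for RPLP2 and chr13:24072551-24072570 (plus) for RPSA.
RPS20: CTCTTTgaagaagacgcagc
RPL10: CTCTTTTCCTTCggcgcggt
RPL6: CTCTTTCCCatcttgcaagg
RPLP0: CTCTCgccaggcgtcctcgt
RPLP2: CTTCCTTTCTgtccctgacg
RPSA: cggggtccacacggcgttgt

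Near-identical copies in the genome can take or lose counts of a member. The last 300 transcribed bases matched at least 1 other place at 97% identity over 200 bases or more in 9 of 40 members, among them RPS23 with 2 such places, and RPL10, RPS13, RPS15A, RPS18, RPS20, RPS21 and RPS3A with 1. At 90% identity 26 members had a match. RPSA had no match at 97% and RPL10A had 9 at 90%. The median level in non-cycling lung cells was 2981 CPM for members with a copy at 97% and 2880 CPM for those without. How reads were shared between copies was not tested, so the levels of these 9 members are uncertain. The same may hold for members with less close copies, such as RPL10A, whose closest match elsewhere had 94.5% identity. The 40 members lay on 16 chromosomes. Genes that could not be named add to this limit: of 6747 features without a symbol, 26 reached 1000 CPM in non-cycling lung cells and held 8.44% of UMIs, and 23 did so in aorta endothelial-like cells with 7.70%. Whether missing members are among them was not tested.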

How the data were processed

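UMI counts per cell were used as deposited by the authors, from Cell Ranger 3.0.2 and Ensembl genes of Sscrofa11.1, for 1185 aorta and 5946 lung barcodes; 246 and 5683 cells passed the limits of the methods as applied here, which is not the study's own set. Each library was normalized to 10000 UMIs and clustered in Seurat 5.3.0 (R 4.3.3) with 20 principal components and resolution 1, with markers and members left out of the variable genes. The naming rule and its thresholds were set after marker levels had been seen. Python 3.11.15, numpy 2.4.6, pandas 2.3.3, scipy 1.17.1 and matplotlib 3.10.9 gave shares (Clopper-Pearson), CPM (exact Poisson), ratios and plots, and BLAST 2.17.0+ the copies; the code was tested on simulated data. Features at 50 CPM or more in either class were called up when at least 25% higher and down when at least 20% lower. No doublet caller was run: doublets stay in, perhaps also among deep aorta cells, and their effect was not tested. Named members are the 10 most and 5 least abundant, the 5 with the largest fold each way and those with known roles; others named were chosen after their values were seen. Results for members withheld for evaluation are not reported here. Members and lists were chosen with earlier results of these data known. Intervals cover counting error only.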

Additional observations from a re-analysis of the deposited data

Results flagged for a closer look

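Barcodes outside every comparison still held members. In the 230 aorta barcodes that failed the mitochondrial limit, the members took 0.851% of UMIs (0.832 to 0.870), at a median of 88.6% mitochondrial UMIs, 63 genes and 1356 UMIs. In the 237 such lung barcodes they took 1.46% (1.41 to 1.51), at a median of 85.3% mitochondrial UMIs, 106 genes and 984 UMIs. They were flagged as data that no comparison used, with more than a count of 0 would allow. Almost any barcodes with counts meet that rule, so it shows only that members were counted there.

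The same rule flagged a feature that the table of gene names calls FLT3LG, a cytokine gene, and that stands outside the sums. It held 4502 CPM (4388 to 4618) in aorta endothelial-like cells and 4515 CPM (4486 to 4544) in non-cycling lung cells, levels of an abundant member. Another feature with that symbol in the matrices held 4.57 and 11.3 CPM. RefSeq gives FLT3LG as a synonym of RPL13A, a member symbol not found among the features, at chr6:54551772-54568752. Which gene the abundant feature counts was not determined.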

How the results depend on the processing

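Short names stand for the comparisons of the report: S phase, G2M and collagen-high for a class over non-cycling (in aorta, all) endothelial-like cells, EndMT-like for that class over aorta endothelial-like cells, and low-mitochondrial for cells under 1% mitochondrial UMIs over the others. Directions held in these ratios under all alternatives run: aorta EndMT-like (14 alternatives, 1.21 to 1.59), aorta low-mitochondrial (10, 1.26 to 1.48), lung low-mitochondrial (10, 1.05 to 1.28), lung collagen-high (15, 1.05 to 1.06), lung G2M (15, 0.963 to 0.981), and in deep aorta S phase (8, 0.956 to 0.991), G2M (8, 0.945 to 0.980) and collagen-high (8, 1.06 to 1.10). Shares, ratios and counts not named below moved by no more than their counting interval, or for counts 1.5 times. The median number of members seen per cell was 36 to 39 when thinned to 1000 UMIs and 41 without thinning. Shares and ratios that moved are given by setting; a value with more digits may differ where the rounded value does not, and intervals are narrow because UMIs are many.

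With UMIs outside mitochondrial genes as the total, the share was 13.3% in endothelial-like cells and 14.1% in collagen-high cells of aorta, 14.0% in non-cycling cells, 13.7% in S phase cells, 13.5% in G2M cells and 14.8% in collagen-high cells of lung and 12.1% in all deep aorta cells. On that total ratios were 0.981 (S phase), 0.963 (G2M) and 1.07 (low-mitochondrial) in lung, 1.34 (EndMT-like), 1.26 (low-mitochondrial) and 1.12 (low-mitochondrial endothelial-like) in aorta, 1.04 for lung over aorta and 0.956 (S phase), 0.947 (G2M) and 1.06 (collagen-high) in deep aorta. A mitochondrial limit of 10% gave shares of 13.0% in endothelial-like cells and 12.8% in collagen-high cells of aorta, 13.2% in non-cycling cells and 13.9% in collagen-high cells of lung and 11.3% in all deep aorta cells. Under that limit ratios were 0.989 (S phase) and 0.968 (G2M) in lung, 0.988 (collagen-high, now on the other side of 1), 1.36 (EndMT-like), 1.31 (low-mitochondrial) and 1.15 (low-mitochondrial endothelial-like) in aorta, 1.01 for lung over aorta and 0.964 (S phase), 0.956 (G2M) and 1.06 (collagen-high) in deep aorta. RPS19BP1 and the 12 named genes added gave shares of 15.8% in endothelial-like cells, 22.9% in EndMT-like cells and 17.0% in collagen-high cells of aorta, 16.8% in non-cycling cells, 16.8% in S phase cells, 16.4% in G2M cells and 17.9% in collagen-high cells of lung and 14.6% in all deep aorta cells. With those genes ratios were 0.995 (S phase), 0.974 (G2M) and 1.06 (collagen-high) in lung and 1.05 for lung over aorta. The mean over cells gave shares of 17.0% in EndMT-like cells and 12.5% in collagen-high cells of aorta, 13.1% in non-cycling cells, 12.8% in G2M cells and 13.8% in collagen-high cells of lung and 11.2% in all deep aorta cells. As means ratios were 0.995 (S phase) and 1.05 (low-mitochondrial) in lung, 1.03 (collagen-high), 1.40 (EndMT-like), 1.28 (low-mitochondrial) and 1.14 (low-mitochondrial endothelial-like) in aorta and 0.990 (S phase), 0.977 (G2M) and 1.09 (collagen-high) in deep aorta. Leaving out the 5 most abundant members gave shares of 9.02% in endothelial-like cells, 13.4% in EndMT-like cells and 9.69% in collagen-high cells of aorta, 9.68% in non-cycling cells, 9.70% in S phase cells, 9.47% in G2M cells and 10.3% in collagen-high cells of lung and 8.35% in all deep aorta cells. Without those members ratios were 1.00 (S phase, now on the other side of 1), 0.979 (G2M) and 1.06 (collagen-high) in lung, 1.49 (EndMT-like), 1.41 (low-mitochondrial) and 1.255 (low-mitochondrial endothelial-like) in aorta and 0.991 (S phase), 0.980 (G2M) and 1.10 (collagen-high) in deep aorta.

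As the median over members ratios were 1.00 (S phase), 0.975 (G2M) and 1.05 (collagen-high) in lung, 1.05 (collagen-high) and 1.39 (low-mitochondrial) in aorta, 1.09 for lung over aorta and 0.982 (S phase), 0.962 (G2M) and 1.08 (collagen-high) in deep aorta. Resolution 0.8 gave shares of 13.2% in non-cycling cells, 13.0% in S phase cells and 12.8% in G2M cells of lung. At 0.8 the ratio was 0.987 (S phase) in lung. Resolution 1.5 gave shares of 13.0% in S phase cells and 12.7% in G2M cells of lung. At 1.5 ratios were 0.990 (S phase) and 0.968 (G2M) in lung. Clustering on 10 components gave shares of 13.1% in non-cycling cells and 13.1% in S phase cells of lung. From 10 components ratios were 1.00 (S phase, now on the other side of 1), 0.977 (G2M) and 1.06 (collagen-high) in lung. Clustering on 30 components gave shares of 14.3% in endothelial-like cells, 17.4% in EndMT-like cells and 11.98% in collagen-high cells of aorta and 13.1% in non-cycling cells of lung. From 30 components ratios were 0.996 (S phase), 0.976 (G2M) and 1.06 (collagen-high) in lung, 0.835 (collagen-high, now on the other side of 1), 1.21 (EndMT-like) and 1.18 (low-mitochondrial endothelial-like) in aorta and 0.907 for lung over aorta (now on the other side of 1). Lifting the upper limit on genes gave shares of 11.09% in endothelial-like cells and 12.1% in collagen-high cells of aorta and 13.1% in non-cycling cells and 12.9% in G2M cells of lung. With deep cells in ratios were 0.981 (G2M) and 1.06 (collagen-high) in lung, 1.09 (collagen-high), 1.59 (EndMT-like), 1.48 (low-mitochondrial) and 0.824 (low-mitochondrial endothelial-like, now on the other side of 1) in aorta and 1.18 for lung over aorta.

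Phase called per cell gave a share of 13.2% in non-cycling cells of lung. By called phase ratios were 0.991 (S phase) and 0.968 (G2M) in lung and 0.945 (G2M) and 1.07 (collagen-high) in deep aorta. Leaving out low-mitochondrial cells gave shares of 11.9% in endothelial-like cells and 15.4% in EndMT-like cells of aorta. Once these were gone ratios were 1.09 (collagen-high) and 1.30 (EndMT-like) in aorta and 1.10 for lung over aorta. Keeping only cells of 2000 to 10000 UMIs gave shares of 13.8% in endothelial-like cells, 18.1% in EndMT-like cells and 11.6% in collagen-high cells of aorta and 13.1% in S phase cells, 12.7% in G2M cells and 13.8% in collagen-high cells of lung. Between these depths ratios were 0.966 (G2M), 1.05 (collagen-high) and 1.28 (low-mitochondrial) in lung, 0.843 (collagen-high, now on the other side of 1), 1.31 (EndMT-like), 1.31 (low-mitochondrial) and 1.20 (low-mitochondrial endothelial-like) in aorta and 0.942 for lung over aorta (now on the other side of 1). With low-mitochondrial set at under 0.5% ratios were 1.18 (low-mitochondrial) in lung and 1.37 (low-mitochondrial) in aorta. With low-mitochondrial set at under 2% the ratio was 1.05 (low-mitochondrial) in lung.

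With cells under 1% left out the members called numbered 4 up (aorta collagen-high) and 23 up (aorta EndMT-like). With a fold of 1.5 the members called numbered 0 up (lung collagen-high), 0 up (lung low-mitochondrial), 1 up (aorta collagen-high), 0 down (aorta collagen-high), 19 up (aorta EndMT-like), 13 up (aorta low-mitochondrial), 5 up (aorta low-mitochondrial endothelial-like), 2 up (lung over aorta), 0 up (deep aorta collagen-high) and 0 down (deep aorta collagen-high). With CPM of UMIs outside mitochondrial genes the members called numbered 5 up (lung low-mitochondrial), 21 up (aorta low-mitochondrial), 10 up (aorta low-mitochondrial endothelial-like) and 1 down (lung over aorta). With features from 10 CPM on the members called numbered 1 up (deep aorta G2M). The share of all features was not counted under these settings, so the counts show only how the calls of members moved.

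The cause of these changes was not tested, apart from the total, the set of members and the set of cells that a setting itself changes. Leaving out cells under 1% mitochondrial UMIs and keeping only cells of 2000 to 10000 UMIs were chosen after seeing the data. Leaving the members in the variable genes changed nothing, as none was among them. With phase called per cell, aorta cells under 5000 genes gave no value of their own. With 1 library per group no paired or leave-one-out analysis was possible. The 22 collagen-high and 66 EndMT-like aorta cells limit what these classes can show, and depth differed between classes and libraries.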
